A study of Mus musculus with 6 samples.

Results

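The 39 coding genes of the 4 mouse *Hox* clusters were examined in primary brite adipocytes, the thermogenic fat cells that arise from progenitors of white adipose tissue. The members were all symbols of the deposited table made of *Hox*, a cluster letter from a to d and a gene number, which gave 39 of 52089 symbols on 151 of 168021 lines: 11 in the *Hoxa*, 10 in the *Hoxb*, 9 in the *Hoxc* and 9 in the *Hoxd* cluster. The cells were preadipocytes of the stromal-vascular fraction of inguinal WAT of 129SvEv mice, which received 2 days of induction and then 1 day of differentiation with rosiglitazone. They were reverse transfected with 50 nM of an LNA gapmer antisense oligonucleotide, either one against the long noncoding RNA *Ctcflos* (*Ctcflos* KD, 3 libraries) or a non-targeting one (NC ctrl, 3 libraries), and harvested 24 h later. Both groups thus shared strain, depot, rosiglitazone and transfection, and a group of untransfected cells was not analysed here. Nothing states that the 3 libraries of a group came from separate cultures or animals, so p-values measure the spread between these libraries, which may be technical. RNA amounts are given as RPKM, a read number corrected for transcript length and for the depth of the library, averaged over the lines of a gene.

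*Hox* genes encode homeodomain transcription factors that give cells of the embryo their position along the body axis. The genes are lined up in each cluster so that low numbers are used toward the head and high numbers toward the tail and the distal limb, and genes of the same number in different clusters are paralogs. Adult fat depots keep a *Hox* pattern that reflects where they formed. *Hoxc8*, *Hoxc9* and *Hoxc10* are known as genes of subcutaneous fat, and *Hoxc8* and *Hoxc10* are known as repressors of browning. HOX proteins bind DNA together with TALE homeodomain cofactors such as MEIS, and their clusters are kept silent by Polycomb and active by Trithorax complexes.

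The depth of the libraries, recovered from the step of 1 read, was 60.8 to 75.5 mio mapped reads in *Ctcflos* KD and 62.9 to 79.3 mio mapped reads in NC ctrl. *Ctcflos*, listed as 1300015D01Rik, was at 0.0969, 0.0705 and 0.210 RPKM in *Ctcflos* KD, against 0.748, 0.751 and 0.840 RPKM in NC ctrl (log2 difference -0.66, SE 0.0840, adjusted p = 0.025 by limma without a filter on low values). KD replicate 3 kept more *Ctcflos* than the other KD libraries and lay nearer to the controls in several results given here. The 6 adipocyte markers *Pparg*, *Cebpa*, *Fabp4*, *Plin1*, *Adipoq* and *Lpl* were each lower in every KD library than in every control, with a summed level of 3948 to 5304 RPKM against 5602 to 6229 RPKM, and 1 of the 6, *Cebpa*, passed the test. Over all genes tested, 44.8% had groups that did not overlap in either direction. Of the 5 progenitor markers 3 were tested and *Pdgfra* was called lower (13.1 against 21.8 RPKM, adjusted p = 0.010 by limma). *Cd34* (1.70 against 1.37 RPKM) and *Pi16* (0.141 against 0.109 RPKM) had higher KD means. *Ly6a* (281 against 346 RPKM) and *Dpp4* (0.00557 against 0.0138 RPKM) had lower ones, and the groups of all but *Pdgfra* overlapped. The summed level, mostly *Ly6a*, was 167 to 390 RPKM in *Ctcflos* KD and 264 to 439 RPKM in NC ctrl. Of the 5 macrophage or leukocyte markers 2 were tested and *Cd68* was called higher (3.24 against 1.08 RPKM, adjusted p = 0.023 by limma), while the summed level was 6.64 to 16.2 against 8.12 to 27.6 RPKM. *Csf1r* was also higher in the mean, at 1.30 against 0.514 RPKM. The other 3 had lower KD means, *Lyz2* at 5.25 against 12.9 RPKM (tested, not called) and *Emr1* at 0.0616 against 0.170 RPKM. *Ptprc*, the defining leukocyte gene, was at 0.00199 against 0.0327 RPKM and stayed under 0.1 RPKM. Of the 4 mesothelial markers 2 were tested and *Lrrn4* was called lower (3.46 against 4.95 RPKM, adjusted p = 0.034 by limma). *Krt19* was at 27.7, 30.1 and 8.30 RPKM against 9.55, 6.44 and 9.56 RPKM, and *Msln* and *Upk3b* stayed under 0.1 RPKM, with a sum of 12.2 to 33.5 against 10.8 to 15.0 RPKM. None of the endothelial, epithelial, muscle or brown positional markers was called, their sums did not exceed 4.77 RPKM in any library, *Myod1* and *Myf5* were at 0, and *Epcam* and *Zic1* stayed under 0.1 RPKM. The part that the differences in these markers have in the *Hox* results was not tested. In such bulk RNA, fewer cells of a type and less RNA per cell cannot be told apart.

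In control brite adipocytes, *Hox* RNA came mostly from the *Hoxc* cluster and from the middle of the number range. The *Hoxc* genes held 57.5% of the summed *Hox* RPKM, *Hoxa* 25.9%, *Hoxb* 11.05% and *Hoxd* 5.61%. *Hoxc8* and *Hoxc10* were the most abundant members with control means of 10.3 ± 0.466 and 9.90 ± 0.712 RPKM (SD, n = 3), and their libraries overlapped, so that their order is not set. The shares and ranks given here rest on the mean over the lines of a gene. Control means of single *Hoxa9* lines ran from 0.588 to 12.3 RPKM and those of *Hoxc10* from 9.73 to 9.98 RPKM. The highest *Hoxc8* line was at 12.4 RPKM. *Hoxa10* (4.87 ± 0.318 RPKM) and *Hoxa9* (4.22 ± 0.0712 RPKM) led their cluster, followed in the whole family by *Hoxc6* (3.81 ± 0.470 RPKM) and *Hoxc9* (3.30 ± 0.251 RPKM). The leading gene of the *Hoxd* cluster was *Hoxd8* (2.08 ± 0.141 RPKM) and that of the *Hoxb* cluster *Hoxb7* (1.48 ± 0.238 RPKM). Among paralogs of number 10, *Hoxc10* and *Hoxa10* were read while *Hoxd10* was seen in 1 control library only, at 0.0139 RPKM.

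RNA was weak at the high-number ends of the clusters, while the low-number ends differed between clusters. *Hoxc4*, the lowest number of its cluster, was at 0.404 ± 0.127 RPKM in controls (SD, n = 3). *Hoxb1*, *Hoxc12*, *Hoxd1*, *Hoxd11* and *Hoxd12* were listed at 0 in all 6 libraries. *Hoxa13*, *Hoxb13*, *Hoxd10* and *Hoxd13* had a mean under 0.05 RPKM, and of the number 13 genes only *Hoxc13* was above that, at 0.201 ± 0.0849 RPKM in controls (SD, n = 3). 17 further members had a mean from 0.05 to 1 RPKM, among them *Hoxa2*, *Hoxa3*, *Hoxa5*, *Hoxa6*, *Hoxa7*, *Hoxa11*, *Hoxb3*, *Hoxb5*, *Hoxb8*, *Hoxb9*, *Hoxc4*, *Hoxc11*, *Hoxc13*, *Hoxd3*, *Hoxd4* and *Hoxd9*.

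**Figure D1:**
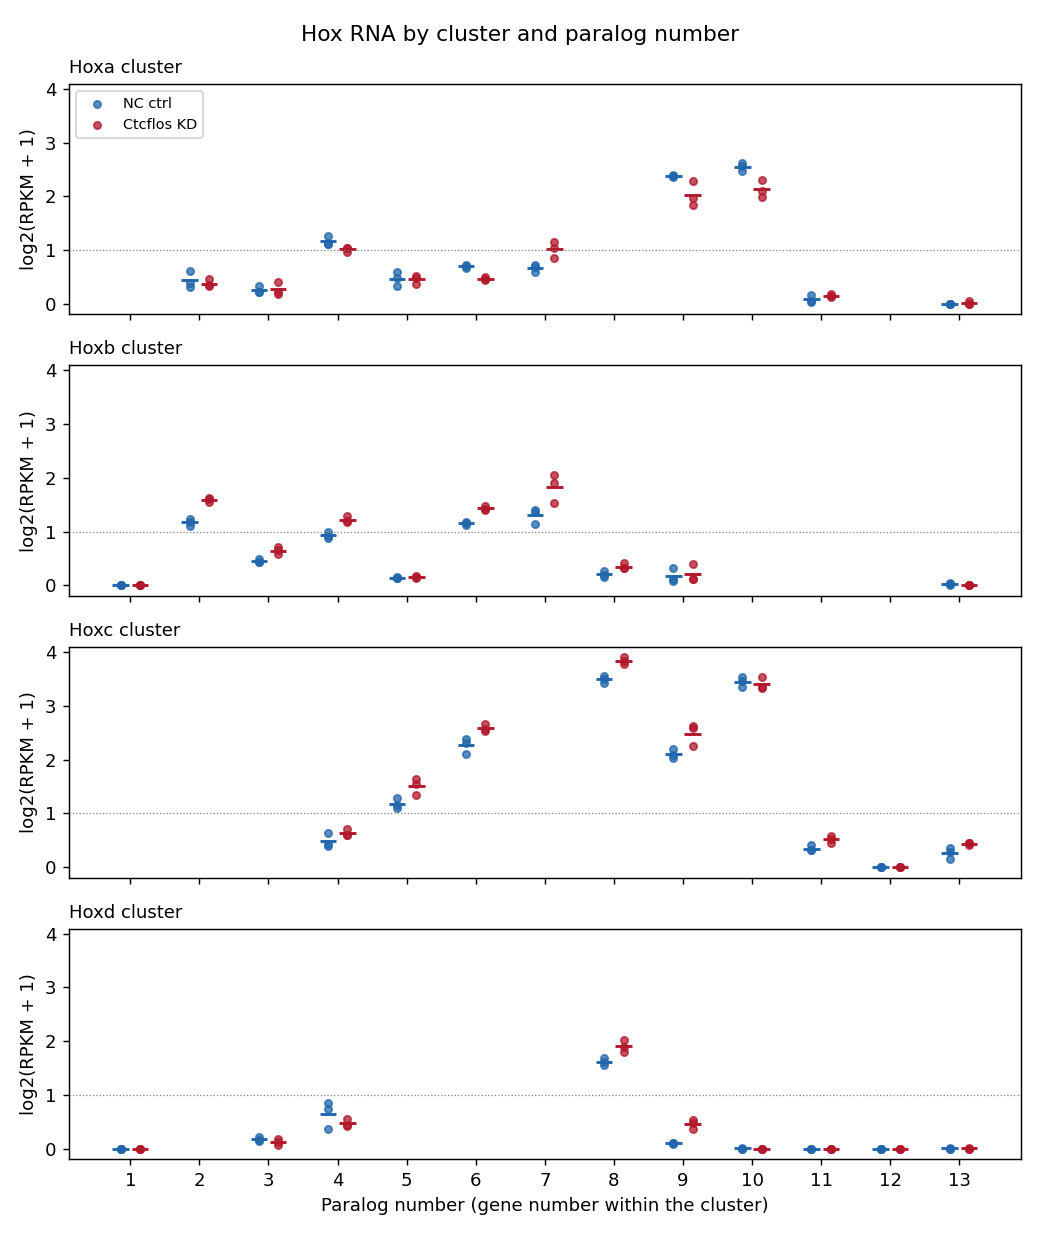
RNA level of the *Hox* genes as log2(RPKM + 1) against the gene number, with 1 panel per cluster; each point is 1 library (blue NC ctrl, red *Ctcflos* KD), short lines are the means of the 3 libraries and the dotted line marks 1 RPKM. *Hoxc8* and *Hoxc10* stand highest, and the genes numbered 11 to 13 stay under 1 RPKM in every cluster.

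After *Ctcflos* KD, 4 *Hoxb* genes and *Hoxc8* were higher and *Hoxa10* was lower. Of the 39 members, 13 had a mean of at least 1 RPKM over the 6 libraries and entered the test (limma-trend on log2(RPKM + 1), Benjamini-Hochberg over 11701 genes). 5 were called higher at an adjusted p under 0.05, namely *Hoxb2*, *Hoxb4*, *Hoxb6*, *Hoxb7* and *Hoxc8*, and 1 was called lower, *Hoxa10*. Over all genes tested, 24.0% were called, 11.5% higher and 12.4% lower. The median log2 difference was 0.29 over the 13 members and 0.028 over all genes tested. In 9 of the 13 members every KD library lay above every control and in 3 every KD library lay below, against 44.8% of all genes tested whose groups did not overlap in either direction. *Hoxb4* is the only one of the 13 whose control mean was under 1 RPKM.

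**Figure D2:**
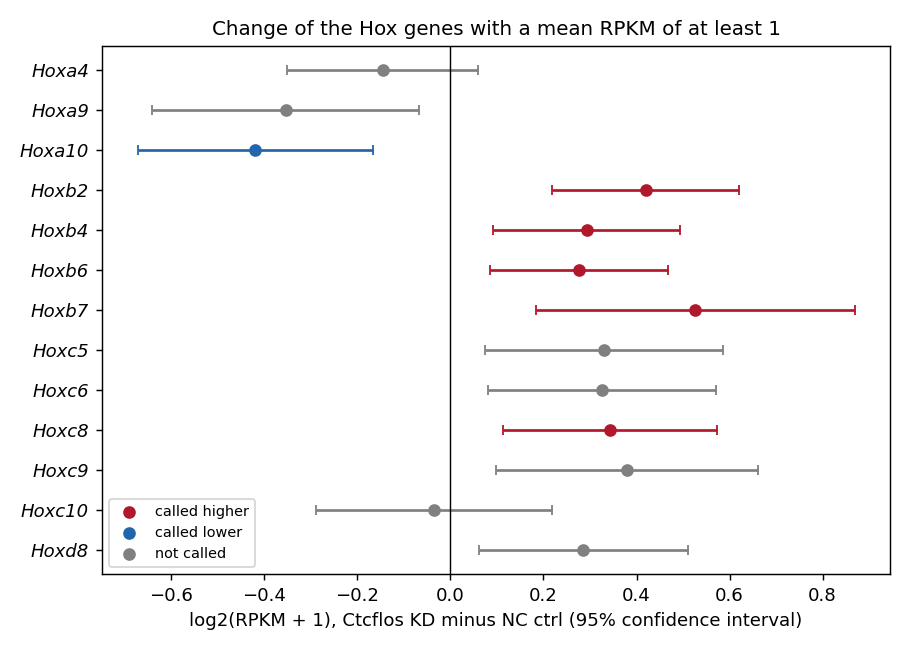
Difference between *Ctcflos* KD and NC ctrl on the log2(RPKM + 1) scale for the 13 *Hox* genes with a mean of at least 1 RPKM, with 95% confidence intervals from limma (n = 3 libraries a group); red is called higher, blue called lower and grey not called. The *Hoxb* genes and all *Hoxc* genes but *Hoxc10* lie to the right of 0, and the 3 *Hoxa* genes lie to the left.

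All 4 *Hoxb* genes that entered the test rose. *Hoxb2*, which acts in hindbrain patterning, was at 2.05, 2.11 and 1.92 RPKM in *Ctcflos* KD and at 1.37, 1.26 and 1.16 RPKM in NC ctrl. The KD libraries reached 160% of the control mean, with narrow spread in both groups (log2 difference 0.42, SE 0.0873, adjusted p = 0.016 by limma). *Hoxb2* lies on chromosome 11 of GRCm38 from 96350525 to 96354012 on the plus strand, and its exons overlap those of the antisense RNA *Hoxb3os*, so reads of the 2 cannot be told apart unless they were counted by strand, which is not given in the sources used here.

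*Hoxb4*, known for expanding blood stem cells, was at 1.44, 1.29 and 1.28 RPKM in *Ctcflos* KD and at 0.985, 0.887 and 0.848 RPKM in NC ctrl. The lowest KD library was above the highest control (log2 difference 0.29, SE 0.0871, adjusted p = 0.045 by limma). *Hoxb6*, a gene of the trunk, was at 1.68, 1.78 and 1.65 RPKM against 1.27, 1.19 and 1.23 RPKM. It had the smallest standard error among these 6 genes (log2 difference 0.28, SE 0.0829, adjusted p = 0.045 by limma). *Hoxb7* had the largest difference of these 6 genes, but also the widest spread, since KD replicate 3 was close to the controls. It was at 2.74, 3.17 and 1.88 RPKM in *Ctcflos* KD and at 1.56, 1.21 and 1.66 RPKM in NC ctrl (log2 difference 0.53, SE 0.149, adjusted p = 0.038 by limma).

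The *Hoxb* members under 1 RPKM were not called. *Hoxb3* (0.568 against 0.371 RPKM, KD against control mean) and *Hoxb8* (0.277 against 0.159 RPKM) had all KD libraries above all controls, with adjusted p-values of 0.21 and 0.17 in the limma fit without a filter. *Hoxb5* and *Hoxb9* overlapped between the groups. Summed over the cluster, *Hoxb* RNA was 8.79 ± 0.758 RPKM in *Ctcflos* KD and 5.66 ± 0.251 RPKM in NC ctrl (SD, n = 3), with libraries of 9.07, 9.37 and 7.93 RPKM against 5.91, 5.41 and 5.67 RPKM.

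In the *Hoxc* cluster, *Hoxc8* rose while *Hoxc10* showed no detectable difference. *Hoxc8* was at 13.3, 13.9 and 12.7 RPKM in *Ctcflos* KD and at 10.7, 9.79 and 10.4 RPKM in NC ctrl. All 7 of its lines were higher in the KD mean (log2 difference 0.34, SE 0.1003, adjusted p = 0.042 by limma). On its transcript ENSMUST00000001703 these values rest on 1855, 1866 and 1438 reads after KD and on 1572, 1392 and 1182 reads in NC ctrl. *Hoxc8* lies on chromosome 15 of GRCm38 from 102990607 to 102994111 on the plus strand.

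*Hoxc10* was at 10.6, 9.04 and 9.25 RPKM in *Ctcflos* KD and at 9.99, 9.14 and 10.6 RPKM in NC ctrl. The groups overlapped, and the log2 difference of -0.04 had a 95% confidence interval from -0.29 to 0.22 (adjusted p = 0.83 by limma). The ratio of *Hoxc8* to *Hoxc10* was 1.25, 1.54 and 1.37 after *Ctcflos* KD, against 1.07, 1.07 and 0.981 with the control oligonucleotide. These ratios did not overlap, and the exact two-sided permutation p was 0.1, the smallest that 3 libraries against 3 allow. This ratio and that of *Hoxc9* to *Hoxa9* were chosen after the values were seen, and the p adjusted over both is 0.1 for each.

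*Hoxc9*, a marker of subcutaneous white fat and its brite cells, was at 5.15, 4.98 and 3.75 RPKM in *Ctcflos* KD and at 3.24, 3.08 and 3.57 RPKM in NC ctrl. Every KD library was above every control, but KD replicate 3 only narrowly, and the gene was not called (log2 difference 0.38, SE 0.123, adjusted p = 0.056 by limma). *Hoxc6* (5.02 ± 0.309 against 3.81 ± 0.470 RPKM, SD, n = 3, adjusted p = 0.059 by limma) and *Hoxc5* (1.85 ± 0.308 against 1.27 ± 0.160 RPKM, adjusted p = 0.064 by limma) had values in the same direction without being called. Annotated exons of *Hoxc5* overlap those of *Hoxc10* on the same strand, so part of its reads may belong to either. Below 1 RPKM, *Hoxc11* (0.431 against 0.270 RPKM) and *Hoxc13* (0.354 against 0.201 RPKM) did not overlap between groups and were not called, and *Hoxc4* overlapped. Summed *Hoxc* RNA was 35.8 ± 2.32 RPKM in *Ctcflos* KD and 29.4 ± 1.66 RPKM in NC ctrl (SD, n = 3).

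**Figure D3:**
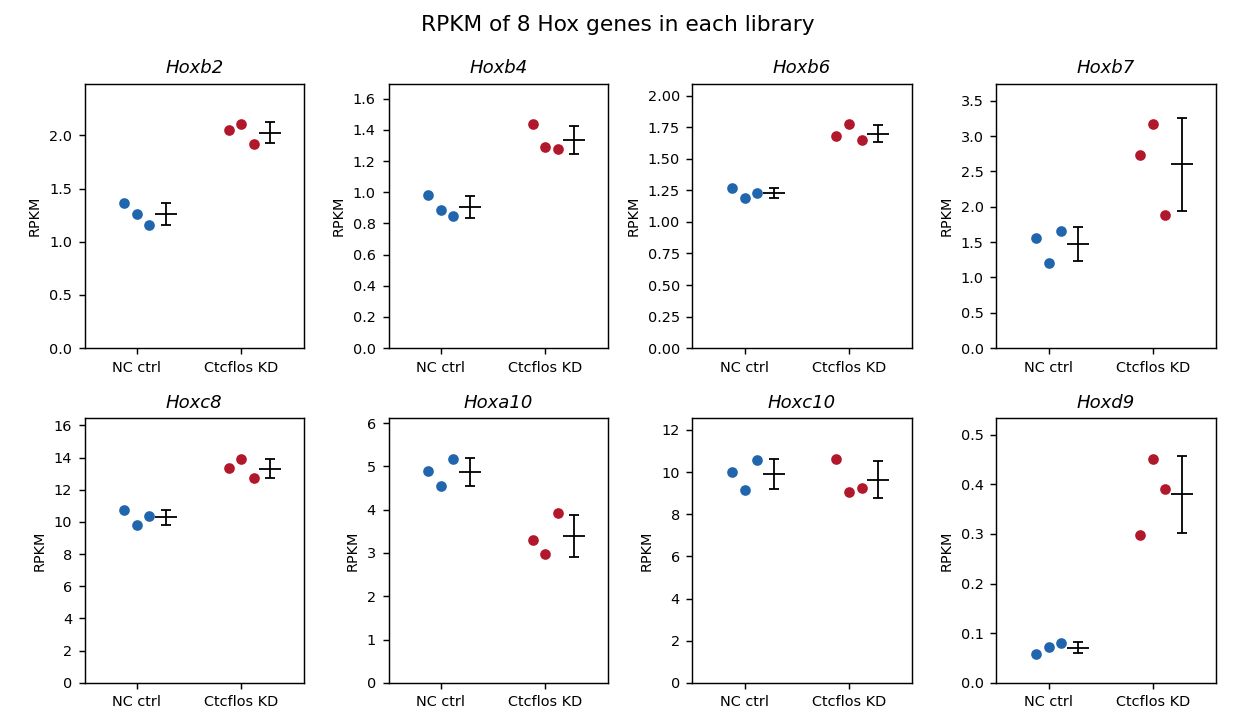
RPKM of the 6 called *Hox* genes and of *Hoxc10* and *Hoxd9* in each library (points, blue NC ctrl, red *Ctcflos* KD) with the mean and SD of 3 libraries in black; each vertical axis starts at 0. The groups separate in every panel but that of *Hoxc10*, where the KD libraries span 9.04 to 10.6 RPKM and the controls 9.14 to 10.6 RPKM.

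In the *Hoxa* cluster, *Hoxa10* fell, and it was the only one of the 3 tested genes to be called. *Hoxa10*, a gene of the lower trunk and the uterus, was at 3.29, 2.98 and 3.93 RPKM in *Ctcflos* KD and at 4.89, 4.54 and 5.18 RPKM in NC ctrl. It fell to 69.8% of the control mean, and all 6 of its lines were lower (log2 difference -0.42, SE 0.110, adjusted p = 0.030 by limma). *Hoxa10* lies on chromosome 6 of GRCm38 from 52231197 to 52240854 on the minus strand. Its neighbour *Hoxa9*, known as a leukaemia gene, was at 2.57, 2.93 and 3.87 RPKM against 4.15, 4.23 and 4.29 RPKM and missed the threshold (log2 difference -0.35, SE 0.125, adjusted p = 0.073 by limma). *Hoxa9* spans the hairpin of *Mir196b* in an exon. The ratio of *Hoxc9* to its paralog *Hoxa9* was 2.01, 1.70 and 0.970 after *Ctcflos* KD, against 0.782, 0.729 and 0.833 in NC ctrl (exact permutation p = 0.1).

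*Hoxa4* was at 1.03 ± 0.0591 RPKM in *Ctcflos* KD and 1.24 ± 0.130 RPKM in NC ctrl and was not called (SD, n = 3, adjusted p = 0.26 by limma). *Hoxa5*, known to act in adipose tissue, was at 0.440, 0.294 and 0.386 RPKM against 0.505, 0.261 and 0.403 RPKM, which overlapped. In the fit without a filter its log2 difference was -0.01 with a 95% confidence interval from -0.24 to 0.21 (adjusted p = 0.94 by limma). *Hoxa6* and *Hoxa7*, which are neighbours, had values on opposite sides. *Hoxa6* was at 0.386 against 0.621 RPKM (adjusted p = 0.15 by limma) and *Hoxa7* at 1.03 against 0.586 RPKM (adjusted p = 0.11 by limma), both without overlap of the groups and without a call. Exons of *Hoxa7* overlap the antisense RNA *Hoxaas3*. With the line of highest mean in place of the mean over lines, *Hoxa7* entered the test and was called higher. *Hoxa2*, *Hoxa3*, *Hoxa11* and *Hoxa13* overlapped. Summed *Hoxa* RNA was 10.7 ± 1.29 RPKM in *Ctcflos* KD and 13.3 ± 0.905 RPKM in NC ctrl (SD, n = 3).

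In the *Hoxd* cluster, *Hoxd9* had the largest ratio of all members with a value in both groups, at a very low level. It was at 0.298, 0.451 and 0.390 RPKM in *Ctcflos* KD and at 0.0588, 0.0724 and 0.0804 RPKM in NC ctrl. On its transcript ENSMUST00000059272 this amounts to 40, 61 and 43 reads against 8, 10 and 10 reads. The KD mean was 539% of the control mean, and *Hoxd9* was called higher in the limma fit without a filter over 38335 genes, of which 4.71% were called (log2 difference 0.36, SE 0.0552, adjusted p = 0.028). In that fit 21 members under 1 RPKM had a value, and *Hoxd9* alone of these was called, with the next smallest adjusted p at 0.11. Among these 21 members, 6 had all KD libraries above all controls and 1 had all below, against 28.1% of all genes with a value whose groups did not overlap. That 28.1% includes the genes past the filter, of which 44.8% did not overlap, so it is not the share of genes under 1 RPKM. *Hoxd8* was at 2.73, 3.07 and 2.46 RPKM against 1.95, 2.05 and 2.23 RPKM, which did not overlap but was not called (log2 difference 0.29, SE 0.0977, adjusted p = 0.067 by limma). *Hoxd3* and *Hoxd4*, which share exons, overlapped between groups. Summed *Hoxd* RNA was 3.62 ± 0.261 RPKM in *Ctcflos* KD and 2.88 ± 0.381 RPKM in NC ctrl (SD, n = 3).

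These calls rest on few libraries. Without NC ctrl replicate 1 or without NC ctrl replicate 3, limma called 0 of the 13 members, with 7 higher and 2 lower, or 8 higher and 1 lower, at an unadjusted p under 0.05, and the calls over all genes dropped from 2803 to 421 and 369. Without KD replicate 1, KD replicate 2 or NC ctrl replicate 2, and with the replicate number as a block, *Hoxb2* alone was called (adjusted p = 0.045 with the block). Without KD replicate 3, 9 members were called higher and 2 lower, and 4810 genes were called in all. *Hoxd9*, in the fit without a filter, had an adjusted p of 0.021 to 0.13 with each library left out in turn and lost its call with the replicate block (adjusted p = 0.11 by limma).

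Several *Hox* messages carry sites for miR-196, microRNAs encoded inside the clusters themselves, and *Hoxb8* is the textbook target that they cleave. Their sequences from RefSeq are shown because *Hoxb6*, *Hoxb7* and *Hoxc8*, called here, hold a site; seed bases 2 to 8 are in capitals. miR-196a is encoded on chromosome 11 between *Hoxb9* and *Hoxb13* and on chromosome 15 between *Hoxc9* and *Hoxc10*, and miR-196b on chromosome 6 within *Hoxa9*.
mmu-miR-196a-5p, chr11:96265187-96265208 (+) and chr15:102973365-102973386 (+) of GRCm38: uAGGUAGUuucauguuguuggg
mmu-miR-196b-5p, chr6:52230129-52230150 (-) of GRCm38: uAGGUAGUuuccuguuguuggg

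The complement of the seed, ACTACCT, occurs in the 3′ UTR of 9 of the 39 *Hox* genes (23.1%) and in 6.10% of the 3′ UTRs of 21020 genes of Gencode vM21, among them *Hoxa4*, *Hoxa5*, *Hoxa7*, *Hoxa9*, *Hoxb6*, *Hoxb7* and *Hoxc8*. The sites of the tested members are printed with the match in capitals, each in a window as long as the microRNA and read on the strand of the message.
*Hoxb6*, chr11:96301373-96301394 (+): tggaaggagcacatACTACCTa
*Hoxb7*, chr11:96289784-96289805 (+): ctgtaaaaaaatatACTACCTa
*Hoxc8*, chr15:102992976-102992997 (+): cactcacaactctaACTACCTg
*Hoxc8*, chr15:102993733-102993754 (+): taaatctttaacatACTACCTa
*Hoxa4*, chr6:52190066-52190087 (-): agcactggccatcgACTACCTt
*Hoxa9*, chr6:52223900-52223921 (-): caaaaggaaagaaaACTACCTt

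*Hoxb8* has no seed match, but its 3′ UTR holds the window with the most bases paired to miR-196a, 21 of 22 without a gap, where the next member, *Hoxd8*, has 15. Paired bases are in capitals.
*Hoxb8*, chr11:96284888-96284909 (+): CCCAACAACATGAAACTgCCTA
*Hoxd8*, chr2:74707120-74707141 (+): CtCAACAACATaAActTcCtaA

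Of the 5 tested members with a miR-196 seed match, *Hoxb6*, *Hoxb7* and *Hoxc8* were called higher, and *Hoxa4* and *Hoxa9* had negative differences without a call. Of the 8532 tested genes with an annotated 3′ UTR, 579 held this match and 27.8% of these were called. Over all 11701 genes tested, with or without an annotated 3′ UTR, 24.0% were called, so the 2 shares rest on different sets. Within the 8532, the median log2 difference was 0.0041 with the match and 0.0192 without it. The site ACAGGGT of miR-10, which is also encoded in the *Hox* clusters, occurs in the 3′ UTR of 4 *Hox* genes, among them *Hoxa3* and *Hoxb3* (10.3%, against 12.5% of all genes), none of which entered the test. The mature microRNAs were not analysed here, and a match is a description and not a measured site.

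RefSeq promoter sequences matched 22 members with 24 promoters. They were rich in CG dinucleotides, with a median observed-to-expected ratio of 0.626 against 0.384 over 32851 promoters, each running from 250 bases before to 50 bases after the start. A joint TALE-HOX motif, searched as TGATTNAT on both strands, occurred in 8.33% of the *Hox* promoters and 3.22% of all, and the MEIS motif TGACAGNT in 4.17% and 5.02%. The *Hox* shares rest on very few promoters. The joint motif was in 1 promoter of *Hoxd11* and in that of *Hoxa2*, and the MEIS motif in that of *Hoxa3* alone. None of these genes entered the test. The 250 bases upstream of *Hoxb4* and *Hoxa10*, called among the 13, and of *Hoxd9*, called without a filter, are shown, 5′ to 3′, with CG in capitals; they hold 14 CG in *Hoxb4*, 7 and 20 in the distal and proximal promoter of *Hoxa10*, and 13 in *Hoxd9*, and none of these promoters holds either motif.
*Hoxb4*, chr11:96318017-96318266 (+) of GRCm38: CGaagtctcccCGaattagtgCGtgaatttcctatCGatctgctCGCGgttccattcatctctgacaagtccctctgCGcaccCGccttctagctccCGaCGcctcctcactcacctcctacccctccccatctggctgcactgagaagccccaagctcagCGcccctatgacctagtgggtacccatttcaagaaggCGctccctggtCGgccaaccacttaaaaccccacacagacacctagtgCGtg
*Hoxa10* distal, chr6:52240855-52241104 (-) of GRCm38: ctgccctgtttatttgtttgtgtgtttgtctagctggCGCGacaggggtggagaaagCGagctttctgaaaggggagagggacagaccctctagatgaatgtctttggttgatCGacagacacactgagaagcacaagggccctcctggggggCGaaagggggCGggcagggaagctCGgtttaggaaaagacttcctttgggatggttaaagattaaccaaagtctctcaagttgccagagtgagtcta
*Hoxa10* proximal, chr6:52234940-52235189 (-) of GRCm38: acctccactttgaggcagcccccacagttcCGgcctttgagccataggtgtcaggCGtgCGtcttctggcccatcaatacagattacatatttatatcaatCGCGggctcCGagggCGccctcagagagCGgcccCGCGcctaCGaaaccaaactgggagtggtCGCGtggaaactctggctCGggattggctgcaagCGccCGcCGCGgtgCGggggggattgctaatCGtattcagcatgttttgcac
*Hoxd9*, chr2:74697513-74697762 (+) of GRCm38: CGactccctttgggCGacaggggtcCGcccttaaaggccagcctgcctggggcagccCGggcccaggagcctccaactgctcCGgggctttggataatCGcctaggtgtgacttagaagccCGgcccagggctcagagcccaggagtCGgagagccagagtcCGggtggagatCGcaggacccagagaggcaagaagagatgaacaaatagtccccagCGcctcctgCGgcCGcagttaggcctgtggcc

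Among the TALE cofactors, which bind DNA with HOX proteins, *Meis1* fell. Of 8 listed genes 3 entered the test, and 1 was called lower and 0 higher (1 higher at an unadjusted p under 0.05, by limma), with a median log2 difference of 0.06, against 24.0% called and a median of 0.028 over all genes tested. *Meis1* was at 0.699, 0.686 and 1.10 RPKM in *Ctcflos* KD and at 1.30, 1.46 and 1.32 RPKM in NC ctrl (log2 difference -0.37, SE 0.111, adjusted p = 0.044 by limma). Every KD library was below every control, and the KD mean was under 1 RPKM. *Pknox2*, with a mean under 1 RPKM, was called lower in the fit without a filter, at 0.293 against 0.875 RPKM (adjusted p = 0.031 by limma). With RefSeq accessions alone, 3 of these genes were called lower and 1 higher. Without KD replicate 2 or any 1 of the 3 NC ctrl libraries, none was called.

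Polycomb genes keep silent *Hox* genes under H3K27 methylation. Of 31 listed genes 21 entered the test, and 3 were called higher and 3 lower, a share near the 11.5% and 12.4% of all genes tested, with a median log2 difference of 0.19. *Pcgf6*, called higher, had a control mean under 1 RPKM, and *Jarid2*, called lower, a KD mean under 1 RPKM. *Rnf2*, also called higher, rose from 6.44 ± 0.826 to 9.38 ± 0.612 RPKM (SD, n = 3, adjusted p = 0.022 by limma). *Yaf2*, a partner of the RING1 ubiquitin ligases, fell from 5.66 ± 0.663 to 2.79 ± 0.469 RPKM (SD, n = 3, adjusted p = 0.0072 by limma). *Cbx6*, which binds H3K27 methylation, fell from 3.20 ± 0.310 to 1.53 ± 0.552 RPKM (adjusted p = 0.017 by limma), and *Jarid2*, which recruits PRC2, fell from 1.82 ± 0.0725 to 0.952 ± 0.136 RPKM (adjusted p = 0.0093 by limma). *Phc2*, a PRC1 subunit, rose from 2.71 ± 0.173 to 4.72 ± 1.41 RPKM (adjusted p = 0.036 by limma), with 6.28, 4.35 and 3.53 RPKM in the KD libraries.

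Of the 17 Trithorax and H3K27 demethylase genes, 12 entered the test, and 2 were called higher and 0 lower (1 lower at an unadjusted p under 0.05, by limma). For both directions together this is a smaller share than the 24.0% of all genes tested. For calls higher alone it is above the 11.5% of all genes tested, on 2 genes. The median log2 difference was 0.11. *Psip1*, which encodes a chromatin reader that tethers MLL complexes, rose from 2.47 ± 0.104 to 4.09 ± 0.375 RPKM (SD, n = 3, adjusted p = 0.0092 by limma). *Wdr5*, a core subunit of MLL methyltransferases, rose from 2.13 ± 0.0572 to 3.56 ± 0.748 RPKM (adjusted p = 0.024 by limma).

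Among 22 genes of retinoid and caudal input, the signals that set *Hox* expression in the embryo, 9 entered the test, and 1 was called lower and 1 higher, a share near the 24.0% of all genes tested, with a median log2 difference of -0.06. *Rxra*, the retinoid X receptor that also partners PPARG in fat cells, was at 1.73, 1.28 and 2.59 RPKM in *Ctcflos* KD and at 4.81, 4.81 and 4.75 RPKM in NC ctrl (log2 difference -1.04, SE 0.156, adjusted p = 0.0071 by limma). *Gdf11*, a ligand that sets the trunk-to-tail transition, rose from 1.32 ± 0.136 to 2.501 ± 0.712 RPKM (SD, n = 3, adjusted p = 0.029 by limma). The caudal genes *Cdx1*, *Cdx2* and *Cdx4* and the retinoic acid hydroxylases *Cyp26a1* and *Cyp26c1* stayed under 0.1 RPKM in every library.

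Of 25 other positional regulators of fat depots, 12 entered the test, and 2 were called higher and 1 lower, a share near the 24.0% of all genes tested, with a median log2 difference of 0.18. *En1*, which marks an embryonic lineage of the trunk that gives rise to dermis, muscle and brown fat, was at 2.00, 1.62 and 1.17 RPKM in *Ctcflos* KD and at 0.740, 0.623 and 0.666 RPKM in NC ctrl (log2 difference 0.62, SE 0.128, adjusted p = 0.015 by limma), and its control mean was under 1 RPKM. *Tbx18* rose from 1.79 ± 0.0332 to 3.22 ± 0.415 RPKM (SD, n = 3, adjusted p = 0.0090 by limma), and *Prrx2*, a mesenchymal homeobox gene, fell from 3.78 ± 0.151 to 2.78 ± 0.323 RPKM (adjusted p = 0.041 by limma). Without NC ctrl replicate 1 or 3 none of these 12 was called.

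**Figure D4:**
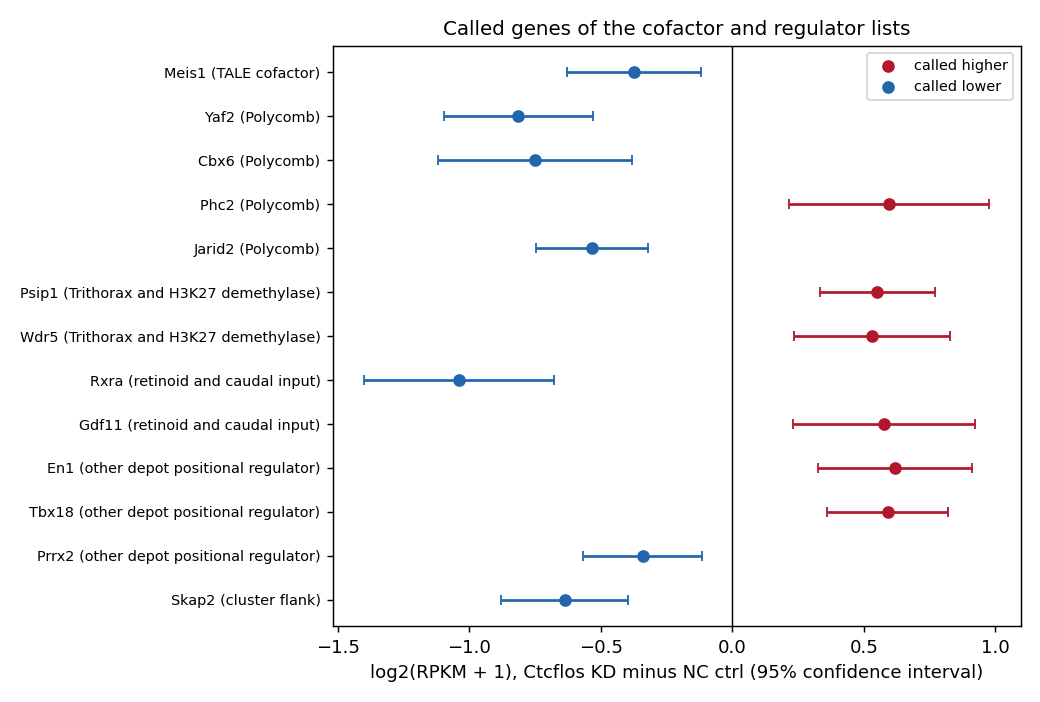
Difference between *Ctcflos* KD and NC ctrl on the log2(RPKM + 1) scale with 95% confidence intervals from limma (n = 3 libraries a group) for up to 4 called genes of each regulator list, red higher and blue lower. *Rxra* stands farthest to the left at -1.04, and both Trithorax genes lie to the right of 0.

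Genes next to the clusters were compared in the same way. Of 11 listed flanking genes 10 were found and 6 entered the test, with 1 called lower and 0 higher (0 higher and 2 lower at an unadjusted p under 0.05, by limma). For both directions together this is a smaller share than the 24.0% of all genes tested. For calls lower alone it is above the 12.4% of all genes tested, on 1 gene. The median log2 difference was -0.17. *Skap2*, next to the *Hoxa* cluster, was at 1.21, 1.39 and 1.40 RPKM in *Ctcflos* KD and at 2.88, 2.21 and 2.83 RPKM in NC ctrl (log2 difference -0.64, SE 0.106, adjusted p = 0.0086 by limma). *Evx1* and *Evx2*, which lie beyond *Hoxa13* and *Hoxd13*, were at 0 in every library. The noncoding RNAs of the clusters were weak, as 10 of 23 listed ones were found and 0 reached a mean of 1 RPKM.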

How the data were processed

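The authors deposited 1 table of RPKM values (reads corrected for transcript length and library depth) with 168326 lines for RefSeq, Ensembl and GenBank accessions and 3 *Ctcflos* KD and 3 NC ctrl libraries, made from stranded total RNA. How the reads were counted, and whether by strand, is not given in the sources used here; for splicing, the methods name STAR and GRCm38. 305 repeated lines were removed, and RPKM was averaged per symbol. log2(RPKM + 1) was tested by limma-trend (limma 3.58.1, R 4.3.3) in genes with a mean of at least 1, with Benjamini-Hochberg adjustment at 0.05. Members under 1 come from the same fit without a filter. The log2(RPKM + 1) scale understates changes of weak genes. Depth comes from RPKM steps of Ensembl transcripts, with at least 96.1% of the low values within 0.1 of whole reads; a single read lies far below 1 RPKM on most transcripts. In simulated data for this comparison, the fit found 200 of 200 genes with a log2 change of 1 and made 10 false calls among 11701 genes. The simulated noise was the same for every gene (SD 0.15), and the change of 1 was larger than any called *Hox* difference. How well the fit finds differences of the *Hox* size was thus not simulated.

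Values of every library are given for called members, the most abundant member of each cluster, *Hoxc8*, *Hoxc9*, *Hoxc10* and *Hoxa5*; for other lists, up to 4 called genes with the largest difference and no overlap. Values of 1 member and of 1 TALE cofactor are not reported here. The members and lists were chosen with earlier results of these data known. Gene spans, exons and 3′ UTRs are from Gencode vM21 (GRCm38). Alternatives were a pseudocount of 0.1, no filter, median-of-ratios scaling, a replicate block, RefSeq accessions alone, the highest line, an adjusted p of 0.01, and leaving out each library. Python 3.11.15, pandas 2.3.3, numpy 2.4.6 and matplotlib 3.10.9 were used.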

Additional observations from a re-analysis of the deposited data

How the results depend on the processing

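The 5 *Hox* genes called higher and 1 called lower became 2 and 0 with no filter on low values, 0 and 0 at an adjusted p under 0.01, and 1 and 0 with the replicate block. With no filter, 34 members were tested, and the 2 called were *Hoxb2* and *Hoxd9*. *Hoxd9* is not among the 5, so *Hoxb2* alone kept its call there. RefSeq accessions alone gave 2 called lower. With each library left out in turn, 0 to 9 members were called higher and 0 to 2 lower. Of 156 comparisons of the 13 tested members with an alternative, 154 kept their direction, 41 lost and 9 gained the call. Only the members called in the main fit, 5 higher and 1 lower, could lose a call. The 41 losses thus all fall on their comparisons and not on all 156. The gains fall on the 7 tested members that were not called. On the log2 scale, *Hoxc10* ranged from -0.10 to 0.0080 with each library left out, above 0 without KD replicate 2 (0.0053) or NC ctrl replicate 3, and *Hoxa5* from -0.082 to 0.045, above 0 without KD replicate 2 (0.028) or NC ctrl replicate 1; neither was called in any fit. Median-of-ratios scaling moved the median of all genes by -0.0234 and reversed no *Hox* gene named. The cause of these changes was not tested, except that a block or a left-out library leaves fewer degrees of freedom, and that with no filter more genes are tested.

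For the other lists, calls higher and lower ranged as follows with each library left out: TALE cofactors 0 to 1 and 0 to 2, Polycomb 0 to 6 and 1 to 4, Trithorax 0 to 3 higher, retinoid and caudal input 0 to 1 and 1 to 3, positional regulators 0 to 4 and 0 to 2, and flanking genes 0 to 3 lower. With no filter on low values the calls higher were 0 for Polycomb, 1 for Trithorax, 0 for retinoid input and 4 for positional regulators, which had 0 lower. With RefSeq accessions alone, TALE cofactors had 1 higher and 3 lower, Polycomb 5 higher, Trithorax 1 lower, retinoid input 2 lower and flanking genes 2 lower. With the highest line of a symbol, TALE cofactors had 1 higher and 3 lower, retinoid input 2 lower and positional regulators 0 lower. The replicate block gave 0 TALE cofactors and 0 positional regulators lower, and the scaling gave 2 flanking genes lower. The summed *Hoxb* difference of 3.13 RPKM was 4.20 RPKM with RefSeq accessions alone.

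*Ctcflos* kept its log2 difference of -0.66 with the replicate block at an adjusted p of 0.11 by limma, and ranged from -0.72 to -0.63 with each library left out. The deviations of same-numbered libraries had correlations of 0.287, -0.288 and -0.418 for numbers 1 to 3. These have no common sign, so the numbers do not show a pairing, and libraries of unlike number were not compared. At 60.8 to 79.3 mio mapped reads, members under 0.05 RPKM rest on very few reads, and their changes were not detectable at this depth.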
